A study of Rattus norvegicus with 30 samples.

Results

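The comparison asks how the response of the rat kidney to a high dose of mercury chloride (HgCl2) differed between an early and a later time. Its members are 20 of the 30 libraries of the study: 5 from vehicle and 5 from high dose animals at 10 h, and 5 from vehicle and 5 from high dose animals at 34 h. They were chosen by the labels alone. All animals were Sprague-Dawley rats, an outbred stock, and the labels give neither age nor sex. Vehicle animals received saline at 1 ml/kg and high dose animals 0.50 mg/kg HgCl2. The other 10 libraries come from a low dose of 0.25 mg/kg at the same times and serve here only for values set beside those of the high dose. Whole frozen kidneys were powdered, and polyadenylated RNA was sequenced, so that a library averages over all cell types of the organ. Fewer cells of a type and less RNA per cell cannot be told apart in such libraries.

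Inorganic mercury is taken up from the blood and the filtrate by the cells of the proximal tubule, where it binds the thiol groups of proteins and glutathione. Tubule cells respond with stress and metal-binding proteins, some of them die, and surviving cells later cover the bare stretches of tubule and divide. Early and late responses of the kidney commonly involve different genes. Which genes stand behind the transcripts below is not known here, since the files carry transcript IDs without gene names and 0 cells of the reference table of 47357 genes hold a transcript ID. For the same reason the labelled tissue could not be checked against marker genes.

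Depth was alike in the 4 groups. Estimated counts on transcripts were 27.7 to 32.5 M in vehicle and 26.7 to 33.9 M in high dose libraries at 10 h, and 24.7 to 32.8 M and 27.7 to 33.4 M at 34 h. At 10 h the vehicle libraries are numbered 36 to 40 and the high dose libraries 56 to 60, so that dose and numbering cannot be told apart there. Both groups of 34 h are split over the numbers, with vehicle at 43 to 45, 51 and 52 and high dose at 41, 42 and 53 to 55. Where blocks of library numbers serve as a covariate below, they are the numbers from 51 on against the lower ones. This cut was made here and is not in the labels. At 10 h it is the same as the dose, so that its size was estimated from the groups of 34 h alone and carried over to 10 h. An earlier look at these data found 4 libraries far from all others, and all 4 are among the 20: vehicle replicate 2 and high dose replicate 2 at 10 h, and high dose replicates 3 and 4 at 34 h. The named transcripts, the classes of shift and the strongest reversals are given with and without them.

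The quantity tested is the change of effect: the log2 ratio of high dose to vehicle at 34 h minus the log2 ratio of high dose to vehicle at 10 h. A value above 0 means that the transcript stood higher, relative to its own vehicle group, at the later time. Levels are in CPM, that is, counts scaled to the library's total over transcripts after TMM normalization, and the SE of a log2 value is derived from edgeR's F statistic. With an adjusted p under 0.05 as the threshold, edgeR's quasi-likelihood test called 2 of 21112 transcripts, 0.00947%. Both changes were above 0. In the same fit, the high dose effect was called in 0% of transcripts at 10 h and in 0% at 34 h, while 13.5% and 6.56% had an unadjusted p under 0.05. Where no transcript is affected, a share of about 0.05 is expected under that unadjusted threshold, and the 34 h value is near it. DESeq2 called 350 transcripts at 10 h (1.66%) and 12 at 34 h (0.0568%), and limma voom with quality weights called 153 and 1.

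ENSRNOT00000027755, a transcript of 2677 bases, reversed its shift. At 10 h it stood at 12.7, 16.1, 16.7, 13.4 and 14.6 CPM in the vehicle libraries and at 11.1, 9.32, 11.6, 9.56 and 10.2 CPM in the high dose libraries. Every high dose library lay below every vehicle library at that time. At 34 h the vehicle libraries stood at 13.3, 10.8, 10.5, 10.3 and 11.9 CPM and the high dose libraries at 14.2, 15.5, 15.9, 19.8 and 14.3 CPM. The order was now turned, and the lowest high dose library lay above the highest vehicle library. The log2 effect was -0.51 (SE 0.11) at 10 h and 0.49 (SE 0.11) at 34 h, and the change of effect was 1.00 (SE 0.15, edgeR adjusted p = 0.0373, n = 5 in each of 4 groups). Neither effect passed the test at its own time (edgeR adjusted p = 0.131 and 0.614). Seen across time, the vehicle mean went from 14.7 ± 1.69 to 11.35 ± 1.26 CPM (SD, n = 5) and the high dose mean from 10.3 ± 0.99 to 15.9 ± 2.28 CPM. These changes over time did not pass the test (log2 -0.38 and 0.62, edgeR adjusted p = 0.861 and 0.101).

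In the low dose libraries the transcript overlapped the vehicle at both times. ENSRNOT00000027755 stood at 12.0 to 18.7 CPM (median 17.25) after the low dose at 10 h and at 12.8 to 16.02 CPM (median 13.6) at 34 h. Its change of effect for the low dose was 0.13 (SE 0.16, edgeR adjusted p = 1.000), against the same vehicle libraries. All its estimated counts were whole numbers, 251 to 631 per library, and its level per length was 6.05 TPM on average. With blocks of library numbers as a covariate the change of effect was 1.04 and the call was lost (edgeR adjusted p = 0.214). Without the 4 libraries that stand apart it was 0.82 and did not pass either (edgeR adjusted p = 0.228). With single libraries left out it was 0.91 to 1.08, with adjusted p values of 0.0383 to 0.145. It passed in 6 of these 20 fits: those without high dose replicate 1, 4 or 5 or vehicle replicate 1 of 34 h, and those without vehicle replicate 1 or high dose replicate 2 of 10 h.

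ENSRNOT00000009094, a transcript of 1887 bases of low level, stood apart between high dose and vehicle at 34 h. In the high dose libraries of 34 h it stood at 1.83, 4.44, 2.11, 1.38 and 2.12 CPM, and in the vehicle libraries of that time at 0.208, 0.0611, 0.157, 0.244 and 0.224 CPM. The groups did not overlap, with 44 to 120 counts per library in the first and 2 to 7 in the second. At 10 h the high dose libraries stood at 0.0916, 0.223, 0.0896, 0.191 and 0.0345 CPM. The vehicle libraries of 10 h stood at 0.147, 1.41, 0.249, 0.230 and 0.252 CPM, so that replicate 2, 1 of the libraries that stand apart, was alone above the rest. The log2 effect was -1.85 (SE 0.61) at 10 h and 3.71 (SE 0.61) at 34 h, and the change of effect was 5.56 (SE 0.86, edgeR adjusted p = 0.0373). Without vehicle replicate 2 of 10 h the effect at 10 h was -0.80 (SE 0.48, unadjusted p = 0.115), that at 34 h was 3.71, and the change of effect was 4.51 (edgeR adjusted p = 0.0388). Without all 4 libraries that stand apart the change of effect was 5.03 and passed (edgeR adjusted p = 0.0435). With blocks of library numbers as a covariate it was 5.41 (SE 1.03) and the call was lost (edgeR adjusted p = 0.214). By its fitted effects the transcript reversed, but at 10 h the groups overlapped, and the size of the effect there depended on 1 library.

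It was also the only transcript called between the high dose groups of 10 and 34 h (1 of 21112 transcripts, 0.00474%). It stood higher at 34 h (log2 4.20, SE 0.63, edgeR adjusted p = 0.0456). That test uses the same high dose libraries as the change of effect and is no second support. Between the vehicle groups its log2 change was -1.36 (SE 0.60, edgeR adjusted p = 0.907).

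High levels of ENSRNOT00000009094 were not limited to the high dose at 34 h. After the low dose at 10 h it stood at 2.67, 1.88 and 2.46 CPM in 3 libraries and at 0.187 and 0.310 CPM in the other 2. After the low dose at 34 h it stood at 2.62 CPM in 1 library and at 0.0797 to 0.510 CPM in the other 4. Single animals of the low dose groups therefore reached the range of the high dose group of 34 h, as did 1 animal without mercury, vehicle replicate 2 of 10 h at 1.41 CPM. Its change of effect for the low dose was 0.31 (SE 1.06, edgeR adjusted p = 1.000). With 1 library of the 20 left out, the call remained in 5 fits: those without high dose replicate 1 or 4 of 34 h, high dose replicate 2 of 10 h, or vehicle replicate 1 or 2 of 10 h. The adjusted p values ran from 0.0364 to 0.143, with a change of effect of 4.51 to 5.84. DESeq2 gave it no adjusted p. The call was also lost without a filter on low counts (edgeR adjusted p = 0.0572), in a fit of all 30 libraries (edgeR adjusted p = 0.0633) and with limma voom (adjusted p = 0.0617). Of 11 other settings it remained in 6. The size depended on the scale. On log2(TPM + 1), at a mean of 0.543 TPM, the change of effect was 1.44 (limma adjusted p = 0.0488). There the effects were -0.24 (SE 0.16) at 10 h and 1.20 (SE 0.16) at 34 h.

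**Figure D1:**
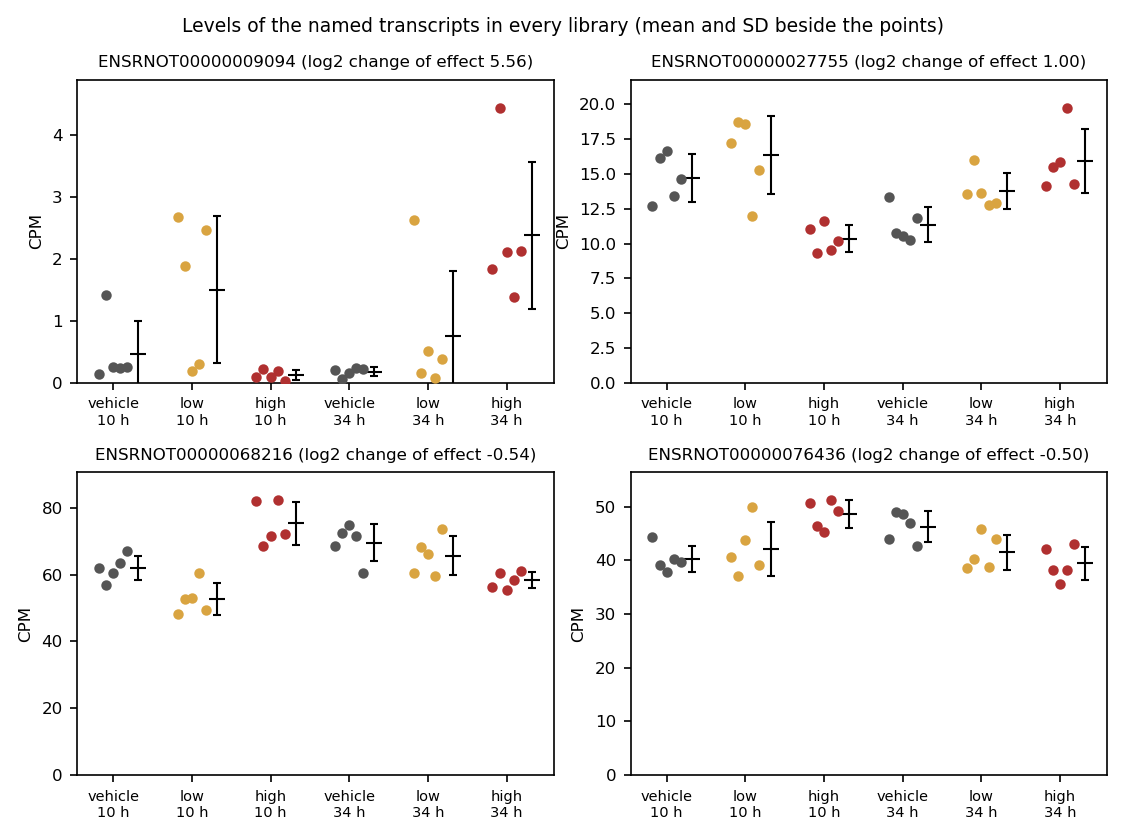
Level in CPM (vertical axis) of the 4 named transcripts in every library, by dose and time; each point is 1 kidney, and the bar beside the points is the mean and SD of 5. ENSRNOT00000027755 changes order between vehicle and high dose from 10 to 34 h, and ENSRNOT00000009094 is at 1.38 to 4.44 CPM in the high dose at 34 h, a range that some low dose libraries and 1 vehicle library of 10 h also reach.

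No transcript with a change below 0 passed the test (0 by edgeR, where 6.20% of transcripts had an unadjusted p under 0.05 in this direction, and 77, or 0.365%, by DESeq2). The 2 with the smallest p among those of at least 5 CPM are given as values. ENSRNOT00000068216, of 890 bases, stood at 61.9, 57.1, 60.6, 63.4 and 67.0 CPM in the vehicle and at 82.0, 68.7, 71.5, 82.4 and 72.0 CPM in the high dose at 10 h, where the groups did not overlap. At 34 h it stood at 68.7, 72.5, 74.9, 71.5 and 60.5 CPM in the vehicle and at 56.4, 60.4, 55.4, 58.4 and 61.1 CPM in the high dose, where 1 vehicle library lay within the range of the high dose. Its log2 effects were 0.28 (SE 0.07) and -0.25 (SE 0.07), and the change of effect was -0.54 (SE 0.10, edgeR adjusted p = 0.103, DESeq2 adjusted p = 0.000263).

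ENSRNOT00000076436, of 1161 bases, had the same form. It stood at 37.9 to 44.4 CPM (median 39.7) in the vehicle and 45.3 to 51.3 CPM (median 49.2) in the high dose at 10 h, and at 42.6 to 49.0 CPM (median 47.0) and 35.7 to 43.1 CPM (median 38.3) at 34 h. The groups were apart at 10 h and overlapped slightly at 34 h. The change of effect was -0.50 (SE 0.09, edgeR adjusted p = 0.103, DESeq2 adjusted p = 0.000289). For the low dose the change of effect was 0.15 (SE 0.10) in ENSRNOT00000068216 and -0.22 (SE 0.10) in ENSRNOT00000076436. Without the 4 libraries that stand apart, the changes of effect for the high dose were -0.50 in ENSRNOT00000068216 and -0.43 in ENSRNOT00000076436 (edgeR adjusted p = 0.230 and 0.272). Both named transcripts had estimated counts that were not whole, so that reads were shared with other targets and their levels are less certain.

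Most single transcripts fell short of the adjusted threshold, and the form of the change was therefore described over a wider list. It holds the 2833 transcripts with an unadjusted p under 0.05 for the change of effect, 13.4% of those tested, 1524 with a change above 0 (7.22%) and 1309 below (6.20%). A share of about 0.05 of those tested is expected there without any change of effect. A sizeable part of the list can therefore be there by chance. Each was put into a class by its fitted effects at both times, with 0.32 log2 units as the least size that counts as an effect. A shift reverses when effects of that size have opposite signs, fades when there is one at 10 h alone, and appears late when there is one at 34 h alone. A faded shift can thus have a smaller effect of the opposite sign at 34 h, and a late one at 10 h. Since the list was chosen on the same contrast, its classes are a description with no test, and the classes of all tested transcripts stand beside them.

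Among listed transcripts with an effect of that size, reversed and faded shifts outnumbered late ones. A choice by the difference of the 2 effects favours opposite signs and disfavours 1 direction at both times. The shares of those classes follow in part from it. Of the 2833 transcripts, 590 reversed in sign (20.8%, against 6.25% of all tested), 597 faded (21.1% against 13.5%) and 256 appeared late (9.04% against 11.3%). Only 12 had effects of that size in 1 direction at both times (0.424% against 4.64%). The largest class, 1378 transcripts or 48.6%, was under that size at both times, as was 64.2% of all tested. ENSRNOT00000068216 and ENSRNOT00000076436 belong to this class. Without the 4 libraries that stand apart, 17.1% reversed, 22.4% faded and 8.51% appeared late. Requiring a level of at least 5 CPM left 2179 transcripts, of which 172 reversed (7.89%), 483 faded (22.2%) and 164 appeared late (7.53%), where all tested transcripts of that level gave 2.03%, 9.26% and 5.37%. The share that reversed was thus made up largely of transcripts under 5 CPM. From 5 CPM on, reversed shifts were about as frequent as late ones, and faded shifts were more frequent than either. Of the 156 transcripts called by DESeq2 (0.739%, with 0.374% above and 0.365% below 0), 36 reversed, 53 faded and 7 appeared late.

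**Figure D2:**
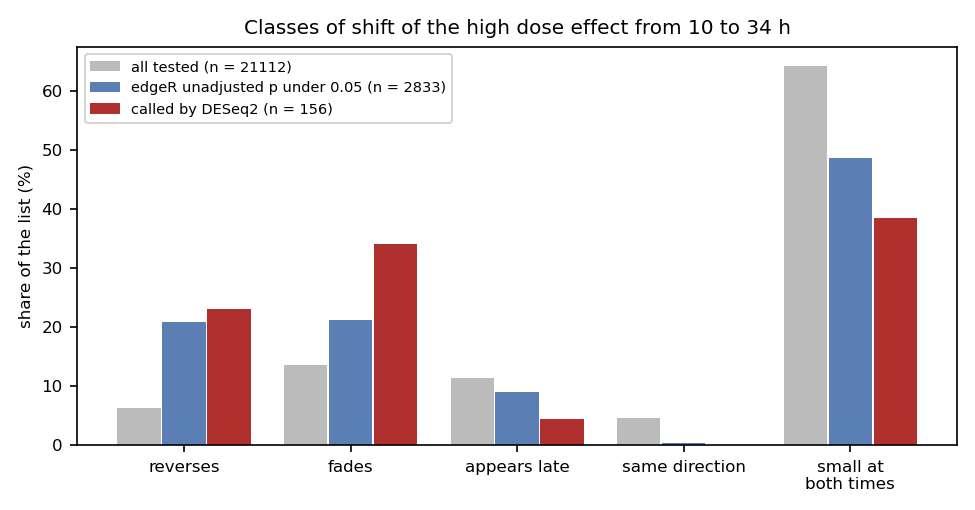
Share of each list (vertical axis, %) in the 5 classes of shift, for all 21112 tested transcripts, the 2833 with an unadjusted edgeR p under 0.05 and the 156 called by DESeq2. Reversed and faded shifts take 20.8% and 21.1% of the second list, late ones 9.04%.

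Differences over time in the vehicle entered the change of effect as well. In 95.2% of the 2833 transcripts the change from 10 to 34 h had opposite signs in vehicle and high dose, against 56.2% of all tested. The change over time was larger in the high dose than in the vehicle in 72.7% of them, against 61.2% of all tested. Both shares depend in part on the choice of the list. In transcripts with a change of effect above 0, the median change over time was 0.38 log2 units in the high dose and -0.19 in the vehicle. In those below 0 it was -0.26 and 0.15. Across all transcripts tested, which share the same 20 libraries and are not independent, the effects at the 2 times had a Pearson r of -0.188 and a Spearman rho of -0.151, and 42.2% had the same sign.

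**Figure D3:**
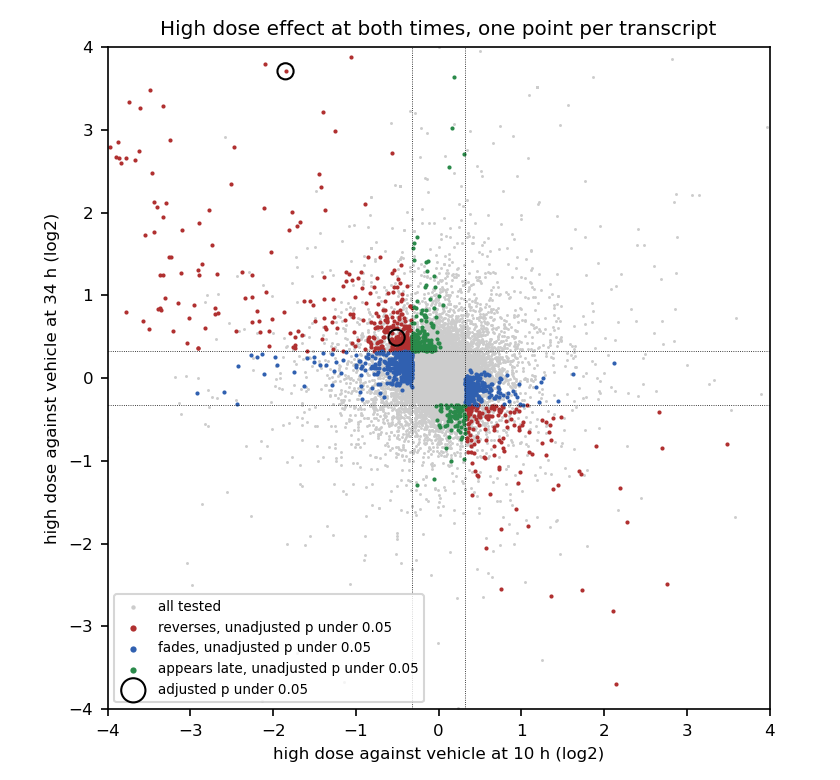
High dose effect at 10 h (horizontal axis) and at 34 h (vertical axis), both log2, with 1 point per tested transcript; dotted lines mark 0.32 log2 units, colours mark the classes at an unadjusted p under 0.05, circles mark the 2 called transcripts, and 203 points lie outside the axes. Reversed shifts fill the upper left and lower right corners.

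A direct count of libraries gave few clean reversals. Every high dose library lay above every vehicle library in 396 transcripts at 10 h (1.88%) and in 139 at 34 h (0.658%), and below in 385 (1.82%) and 111 (0.526%). Groups that were apart at both times in opposite directions were found in 5 transcripts: 1 from below to above (0.00474%), which is ENSRNOT00000027755, and 4 from above to below (0.0189%). In the same direction at both times, 5 stood above (0.0237%) and 2 below (0.00947%). Reversed and lasting separation were thus about equally rare. Of the 252 ways to split 10 libraries into 5 and 5, 1 puts every high dose library above and 1 below. Some separated transcripts are thus expected by chance at each time, and a few at both. Whether the counts at both times exceed chance was not tested. With DESeq2's size factors the balance at 10 h turned, with 348 transcripts above and 429 below, and at 34 h it was 138 above and 117 below. In that scaling, 3 transcripts went from below to above and 4 from above to below.

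The 4 that went from above to below were 654, 1191, 1192 and 1997 bases long, and all their counts were whole. The longest stood at 45.0 to 68.1 CPM in the vehicle and 69.0 to 82.0 CPM in the high dose at 10 h, and at 59.7 to 75.2 CPM and 49.6 to 59.4 CPM at 34 h. Both gaps were narrow, at under 1 CPM between the nearest libraries. Its change of effect was -0.64 (SE 0.14). The other changes of effect were -0.61, -0.41 and -0.32. None passed edgeR's test (adjusted p = 0.229 for all 4), and DESeq2 gave adjusted p values of 0.0123 to 0.0159. These transcripts were picked for their separation, after their values were seen.

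The strongest reversals stood high in few libraries. Of the 2833 transcripts, 144 with a change above 0 and 26 with one below 0 had effects of 2-fold or more in opposite directions at both times. In 113 of the 144, or 78.5%, vehicle replicate 2 of 10 h was the highest of the 20 libraries, which it was in 5.38% of all tested transcripts. The choice of the 144 favours vehicle libraries of 10 h and high dose libraries of 34 h as the highest, so that this share is raised in part by it. The other 4 vehicle libraries of 10 h were highest in 0 to 6.25% of the 144. Summed over the 144, the level was 16986 CPM in vehicle replicate 2 of 10 h and 133 to 490 CPM in those other 4. At 34 h the sum was 3066 CPM in high dose replicate 5, 1891 CPM in replicate 4 and 151 to 294 CPM in the other 3. It was 153 to 373 CPM in the high dose at 10 h and 77.1 to 274 CPM in the vehicle at 34 h. The sum was thus high in 3 animals, 1 at 10 h without mercury and 2 at 34 h after the high dose. Without vehicle replicate 2 of 10 h the count was 34, without high dose replicate 5 of 34 h it was 46, and without the 4 libraries that stand apart it was also 46. With any other single library left out it was 136 to 163. Both counts depended on the filter on low counts, with 458 above and 285 below 0 without one, and 12 and 4 when 5 CPM in 5 libraries were required. Among transcripts with whole counts alone they were 44 and 1. For the 26 transcripts with a change below 0, the count was 34 without the same 4 libraries.

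In that smaller set the sums were more even within groups, except in the high dose at 10 h. Summed over the 26, the level was 5.98 to 43.8 CPM in the vehicle and 118 to 130 CPM in 4 of the high dose libraries at 10 h, with 542 CPM in replicate 2. At 34 h it was 61.3 to 140 CPM in the vehicle and 7.65 to 52.8 CPM in the high dose. Both gaps follow from the choice of the transcripts and are given as levels only. Of the 26, 20 had a mean under 5 CPM.

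For each class and direction, the transcript with whole counts, at least 5 CPM and the smallest p shows what such a shift looks like. Among faded shifts, a transcript of 1404 bases stood at 67.5 to 74.8 CPM (median 68.7) in the vehicle and 80.4 to 118 CPM (median 94.4) in the high dose at 10 h, with no overlap. At 34 h it stood at 73.4 to 81.1 CPM (median 78.0) and 63.7 to 80.7 CPM (median 73.4), with overlap. Its log2 effect was 0.44 (SE 0.08) at 10 h and -0.10 (SE 0.08) at 34 h. A transcript of 2433 bases showed the opposite start, with 25.1 to 35.3 CPM in the vehicle and 18.4 to 26.3 CPM in the high dose at 10 h, which overlapped slightly, and effects of -0.51 (SE 0.12) and 0.27 (SE 0.12). The changes of effect, -0.54 and 0.78, missed the threshold (edgeR adjusted p = 0.229) and passed that of DESeq2 (adjusted p = 0.0123 for both).

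Late shifts were seen with groups apart at 34 h alone. A transcript of 3614 bases stood at 44.5 to 48.5 CPM (median 46.2) in the vehicle and 52.8 to 68.0 CPM (median 57.4) in the high dose at 34 h, and at 47.2 to 60.5 CPM and 44.8 to 51.0 CPM at 10 h. Its effects were -0.12 (SE 0.07) and 0.34 (SE 0.07). A short one of 279 bases stood at 15.9 to 17.8 CPM (median 17.3) in the vehicle and 9.90 to 14.5 CPM (median 11.8) in the high dose at 34 h, and at 13.7 to 16.3 CPM and 13.0 to 19.5 CPM at 10 h. Its effects were 0.14 (SE 0.11) and -0.50 (SE 0.11). A reversal downward was seen in a transcript of 330 bases, with 4.64 to 5.35 CPM in the vehicle and 4.23 to 7.93 CPM in the high dose at 10 h, and 5.23 to 8.05 CPM and 3.95 to 5.01 CPM at 34 h. Its groups overlapped at 10 h and were apart at 34 h, with effects of 0.35 and -0.43. None of these 3 passed edgeR's test (adjusted p = 0.229, 0.229 and 0.238), while DESeq2 gave adjusted p values of 0.0159, 0.0164 and 0.04999.

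**Figure D4:**
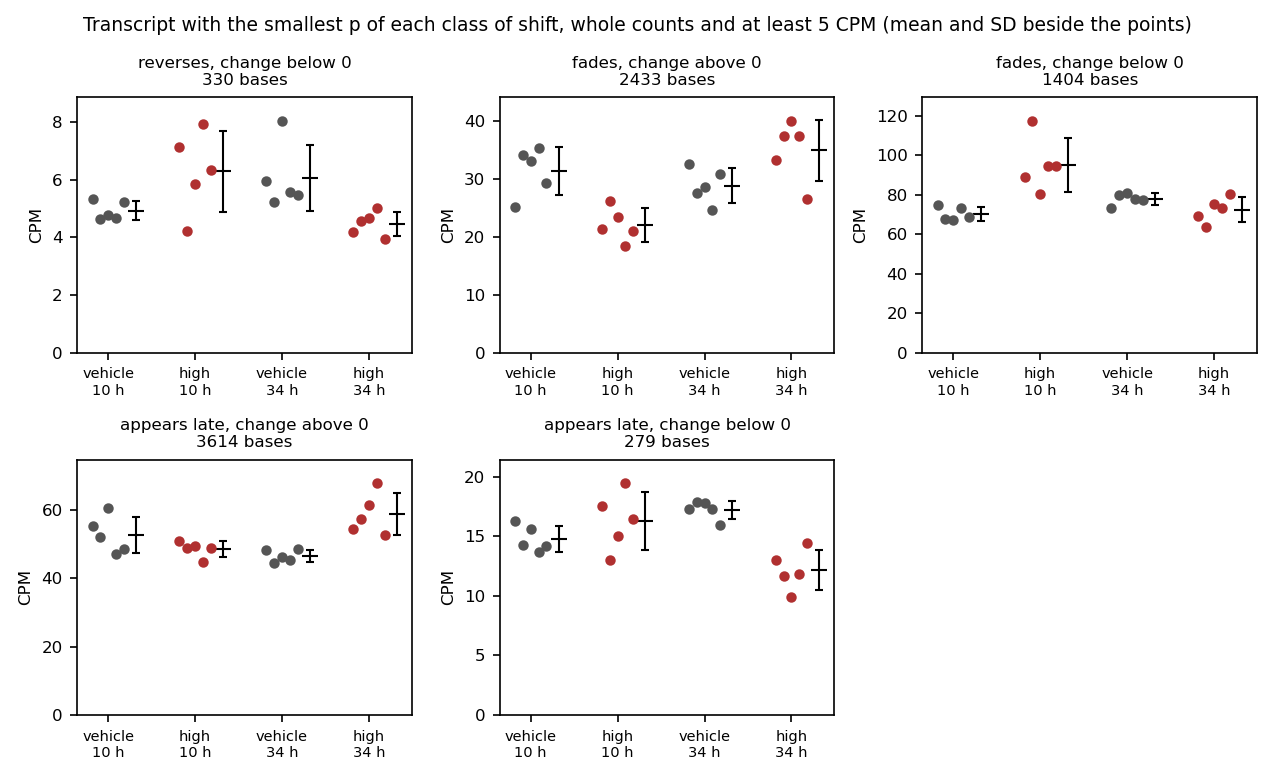
Level in CPM (vertical axis) in every library of the transcript with the smallest p in each class and direction of shift among those with whole counts and at least 5 CPM (upward reversal is ENSRNOT00000027755, shown with the named transcripts); each point is 1 kidney, and bars give the mean and SD of 5. Groups are apart at 10 h in the faded transcript of 1404 bases and at 34 h in both late ones.

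Direction went with transcript length. Of the 2833 transcripts, those with a change above 0 had a median length of 3021.5 bases and those below 0 one of 1496 bases, where all tested had 2095 bases. Among the 3506 tested transcripts of 4000 bases or more, 15.0% had an unadjusted p under 0.05 with a change above 0 and 1.85% with a change below 0. Among the 3370 under 1000 bases the shares were 2.52% and 10.1%. The 2 classes between lay in order, at 4.84% and 8.93% from 1000 to under 2000 bases and 7.77% and 4.11% from 2000 to under 4000 bases. The median effect of all tested transcripts under 1000 bases was 0.11 log2 units at 10 h and -0.05 at 34 h, and of those of 4000 or more -0.08 and 0.06. Long transcripts thus stood slightly lower after the high dose at 10 h and slightly higher at 34 h, and short ones the other way round. Spearman's rho of length with the change of effect was 0.223 over all 21112 transcripts and 0.349 over the 12934 of at least 5 CPM, which share the same libraries.

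The same trend was measured once per library, as a length index: the mean log2 deviation from the 20-library mean over 2568 transcripts of 4000 bases or more, minus that over 1231 transcripts under 1000 bases. It was 0.076 ± 0.092 (SD, n = 5) in the vehicle and -0.131 ± 0.170 in the high dose at 10 h, and -0.020 ± 0.117 and 0.076 ± 0.141 at 34 h. The groups overlapped at both times. In exact permutation tests of the group labels within each time (two-sided), the difference was -0.208 at 10 h (p = 0.0476), 0.096 at 34 h (p = 0.262), and their change was 0.303 (p = 0.0204). Adjusted over these 3 comparisons, the p values were 0.0714, 0.262 and 0.0612, all above 0.05. The index was defined after the trend had been seen, so that its p values are a rough guide. With 1 library left out, the change was 0.241 to 0.351, and without the 4 libraries that stand apart it was 0.344.

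With an offset per library for each of 20 length classes, both calls remained. The change of effect was 1.00 in ENSRNOT00000027755 and 5.62 in ENSRNOT00000009094 (edgeR adjusted p = 0.0374 for both). That of ENSRNOT00000068216 went from -0.54 to -0.34 and that of ENSRNOT00000076436 from -0.50 to -0.38 (edgeR adjusted p = 0.298 and 0.206). The number of transcripts with an unadjusted p under 0.05 was 2337 in this fit, 61.4% of them with a change above 0, against 53.8% before. The values of the 2 called transcripts thus hardly depended on the length offsets, while those of the 2 named transcripts with a change below 0 were nearer to 0 with them. At 1887 and 2677 bases, the called transcripts lie in the 2 middle length classes. The median changes of effect there were -0.08 and 0.02, so that the offsets could move their values little.

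**Figure D5:**
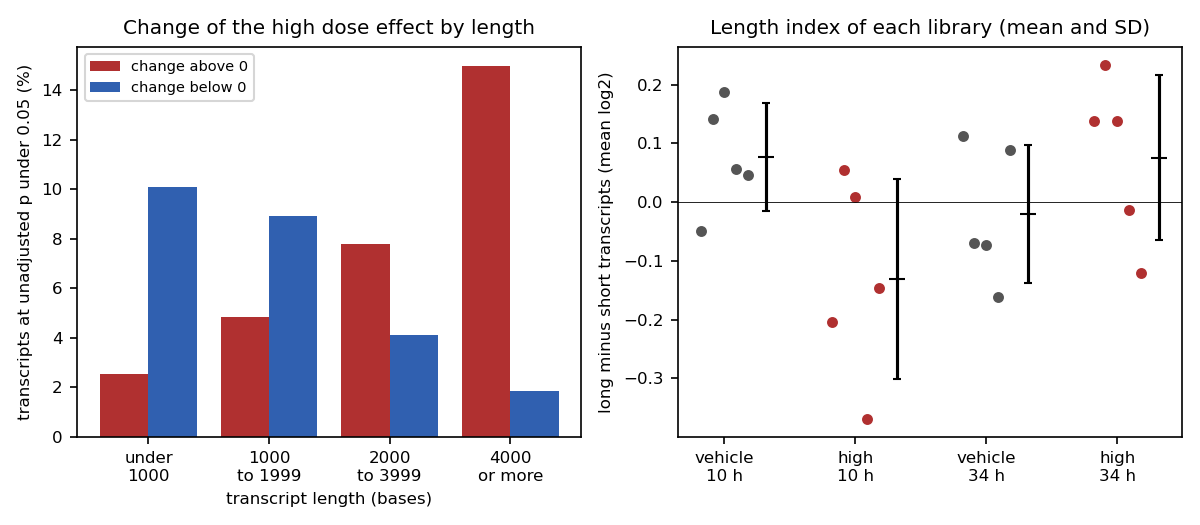
Left, share of tested transcripts with an unadjusted p under 0.05 for the change of effect (vertical axis, %) by transcript length in bases, above and below 0; right, length index of each library in log2 units, with the mean and SD of 5. Changes above 0 make up 15.0% of the longest class and 2.52% of the shortest, and the indices of the groups overlap.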

How the data were processed

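Each library has 1 deposited file with 40071 Ensembl transcripts and 25095 genomic intervals. Its deposited estimated counts were made by kallisto 0.42.2 with the build Rnor_6.0, per the submitters' processing notes. The deposited TPM values are scaled to length and library. The sources used here do not name the annotation release. Library sizes leave out the intervals, 5.82 to 9.23% of counts.

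Estimated counts were rounded. filterByExpr over all 30 libraries kept 21112 transcripts, 39.1% of them with whole counts in every library (within 1e-06). edgeR 4.0.16 (TMM, robust quasi-likelihood) was fitted to the 20 libraries in 4 groups, with Benjamini-Hochberg adjustment. DESeq2 1.42.0, limma 3.58.1 and other settings were alternatives, in R 4.3.3 and Python 3.11.15. The alternative on the deposited TPM used log2(TPM + 1). The test was tried on simulated counts.

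The comparison, the lists and the 4 libraries that stand apart were chosen with earlier results of these data known. The length index, the length offsets and the 2-fold reversals were added after the data were seen. Named transcripts are the called ones by p, then, up to 2 per direction, the smallest p at 5 CPM or more. Gene lists and markers could not be matched to transcripts and were not run. Replicates are separate animals, numbered in accession order. Tests cover the spread between these animals.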

Additional observations from a re-analysis of the deposited data

Results flagged for a closer look

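The high dose effect differed between 10 and 34 h by edgeR's test of the difference in 2 transcripts, with log2 changes of 5.56 in ENSRNOT00000009094 and 1.00 in ENSRNOT00000027755 (edgeR adjusted p = 0.0373 for both).

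Single libraries stood apart from the other 4 of their group in 4 of 56 groups checked, where chance gives about 1 in 20. ENSRNOT00000009094 stood at 1.41 CPM in vehicle replicate 2 of 10 h (others 0.147 to 0.252) and at 4.44 CPM in high dose replicate 2 of 34 h (others 1.38 to 2.12). The transcript of 330 bases with a reversal downward stood at 8.05 CPM in vehicle replicate 3 of 34 h (others 5.23 to 5.95). The transcript of 654 bases whose groups were apart at both times stood at 6.68 CPM in high dose replicate 3 of 34 h (others 8.18 to 8.78).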

How the results depend on the processing

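The 2 calls for the change of effect became 156 with DESeq2, 4 with limma voom, 0 without a filter on low counts (3467 at an unadjusted p under 0.05), 1 with a filter of 5 CPM in 5 libraries, 1 in a fit of all 30 libraries, 1 with the genomic intervals kept, 0 with blocks of library numbers as a covariate (2179) and 1 without the 4 libraries that stand apart. With DESeq2's size factors, limma on log2(TPM + 1), whole counts alone and length offsets it was 2. With 1 library left out it was 0 to 5, and 0 in 13 of 20 fits. The 0 calls at 10 h became 350 with DESeq2, 153 with limma voom, 62 in the fit of 30 libraries, 1 with whole counts alone, 1 without the 4 libraries, and 0 to 5 with 1 library left out. The 0 calls at 34 h became 12 with DESeq2, 1 each with limma voom, log2(TPM + 1), whole counts alone and without the 4 libraries, and 0 to 1 with 1 library left out. The cause was not tested. No named transcript changed the sign of its change of effect in any fit. Of the transcripts with an unadjusted p under 0.05, 53.8% had a change above 0, but 76.7% on log2(TPM + 1) and 70.6% with the intervals kept, and 49.2% with limma voom. With effects counted from 1.5-fold, 9.74% reversed, 8.08% faded and 4.84% appeared late. With blocks of library numbers as a covariate and effects counted from 0.32 log2 units, the shares were 30.6%, 31.9% and 4.82%. The main fit gave 20.8%, 21.1% and 9.04% at that size. No paired analysis was made, since the replicates are separate animals and the labels pair none of them. In 5 animals per group and at this depth, small changes, and changes in transcripts of few counts, may go uncalled. In simulated counts, changes were placed in the high dose at 34 h, in transcripts of at least 5 CPM. There edgeR called 60% of the 2-fold and 93% of the 4-fold changes, with 200 transcripts changed, and 7 unchanged transcripts. The simulated transcripts varied independently, without libraries that stand apart and without a length trend. These rates may therefore not hold for the real libraries.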

Other observations

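The third smallest p for the change of effect belonged to a transcript of 348 bases that was present in some animals and nearly absent in others, picked here after its values were seen. It stood at 21.55 and 23.6 CPM in 2 vehicle libraries of 10 h, at 2.17 CPM in 1 and at 0.0737 and 0.180 CPM in the other 2. At 34 h it stood at 12.6 to 26.1 CPM in 3 high dose libraries and at up to 0.0591 CPM in the other 2. It reached no more than 0.0597 CPM in the high dose at 10 h and 0.174 CPM in the vehicle at 34 h. In the low dose it stood at 19.3 to 26.2 CPM in 3 libraries of 10 h and at 21.57 to 36.8 CPM in 3 of 34 h, and at up to 0.0567 CPM in the other 4. Its counts were not whole, and its change of effect did not pass edgeR's test (adjusted p = 0.103) but passed that of DESeq2 (adjusted p = 2.83e-06).

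Of 14125 genomic intervals tested together with the transcripts, edgeR called 0 for the change of effect, with 724 at an unadjusted p under 0.05. That number is near the share of about 0.05 expected where no effect changes. The intervals were not tested by another tool here.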
